A study of Mus musculus with 8 samples.

Results

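The kinase mTOR and the proteins that hold or restrain it were followed through 10 genes (Mtor, Rptor, Rictor, Deptor, Tsc1, Tsc2, Rheb, Rps6kb1, Eif4ebp1 and Eif4ebp2), found by gene name among the 13996 genes with an expression value. All 10 were measured, and 10 of 10 passed the filter on low values that left 13982 genes for testing. The RNA came from brain cortexes of male C57BL/6 mice, 16 weeks old at sacrifice under ether. From 8 weeks of age, 4 normal mice ate a conventional diet and 4 high fat diet fed mice ate a diet with 60% fat by weight, in both cases for 8 weeks. By the labels the latter were heavier and less tolerant of glucose. Each mouse gave 1 library of rRNA-depleted total RNA, and expression was given as FPKM, a fragment count scaled to transcript length and to sequencing depth. Values are rounded to 0.1 and do not tell how many reads lie behind them.

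The mTOR kinase works in a pair of complexes. In mTORC1 the scaffold Raptor, encoded by Rptor, brings substrates to the kinase, and in mTORC2 Rictor takes that place; Deptor binds the kinase in both and lowers its activity. The TSC1 and TSC2 proteins form a complex that keeps the small GTPase Rheb in its inactive state, and Rheb bound to GTP switches mTORC1 on at the lysosome. Active mTORC1 phosphorylates the kinase S6K1 (Rps6kb1) and the translation repressors 4E-BP1 (Eif4ebp1) and 4E-BP2 (Eif4ebp2), of which 4E-BP2 is known as the main form in brain. Insulin and amino acids feed this pathway, which controls protein synthesis and autophagy in neurons. Its activity is set by phosphorylation, which RNA levels do not measure.

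Of the 10 genes, 6 rose in high fat diet fed mice, 0 fell and 4 did not pass the test. Those that rose were Deptor, Mtor, Tsc1, Rptor, Tsc2 and Eif4ebp2, and the changes other than that of Deptor were between 1.17 and 1.2 times. The test was limma on log2(FPKM + 0.1), two-sided, with Benjamini-Hochberg adjustment over the 13982 genes and a threshold of 0.05 on the adjusted p. By the same test 33.1% of all genes changed, 17.7% upward and 15.3% downward, and of mRNAs alone 33.2%. The median log2 fold change of the 10 genes was 0.24, beside 0.0031 over all genes tested. Values of the diets did not overlap for 5 of the 10 genes, each higher in high fat diet fed mice. Such a separation was found in 31.9% of all genes, 17.2% upward and 14.7% downward. A minimum change of 50% in addition was met by Deptor alone among the 10, and by 7.13% of all genes, 4.23% upward and 2.9% downward.

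The promoter windows of Mtor, Rptor, Tsc1, Tsc2 and Eif4ebp2 are shown because these 5 genes rose by nearly equal factors. The windows are RefSeq sequences on GRCm38.p6, read 5′ to 3′ on the strand of the gene, from 250 bases before to 50 bases after the start site. Capitals mark matches on either strand to the GC box (letters GGGCGG), to the CCAAT box, and to the ETS core (letters CCGGAAG).
Mtor, chr4:148448332-148448631, plus strand: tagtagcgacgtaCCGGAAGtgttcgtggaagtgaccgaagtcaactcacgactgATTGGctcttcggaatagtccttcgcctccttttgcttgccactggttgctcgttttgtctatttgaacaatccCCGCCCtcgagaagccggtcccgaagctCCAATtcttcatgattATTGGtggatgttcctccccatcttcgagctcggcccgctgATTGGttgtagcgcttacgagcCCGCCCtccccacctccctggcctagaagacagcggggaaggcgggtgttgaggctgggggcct
Rptor, chr11:119602655-119602954, plus strand: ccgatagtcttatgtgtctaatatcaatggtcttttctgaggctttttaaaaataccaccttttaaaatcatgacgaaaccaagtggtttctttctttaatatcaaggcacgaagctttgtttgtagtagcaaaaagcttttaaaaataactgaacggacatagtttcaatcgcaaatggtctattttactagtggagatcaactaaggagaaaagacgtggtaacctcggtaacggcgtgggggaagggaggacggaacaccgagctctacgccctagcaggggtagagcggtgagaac
Tsc1, chr2:28640983-28641282, plus strand: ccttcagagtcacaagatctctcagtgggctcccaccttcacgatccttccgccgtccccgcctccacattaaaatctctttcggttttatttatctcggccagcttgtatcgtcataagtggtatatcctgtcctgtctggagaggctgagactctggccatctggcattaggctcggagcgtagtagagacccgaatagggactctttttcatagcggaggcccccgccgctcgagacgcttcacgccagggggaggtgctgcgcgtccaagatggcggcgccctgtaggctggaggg
Tsc2, chr17:24632578-24632877, minus strand: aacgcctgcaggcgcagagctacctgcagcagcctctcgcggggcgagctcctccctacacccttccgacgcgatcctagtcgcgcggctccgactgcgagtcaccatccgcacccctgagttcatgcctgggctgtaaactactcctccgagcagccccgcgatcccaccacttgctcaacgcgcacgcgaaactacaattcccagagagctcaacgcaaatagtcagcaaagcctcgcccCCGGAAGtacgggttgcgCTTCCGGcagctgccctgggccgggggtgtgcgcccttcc
Eif4ebp2, chr10:61452620-61452919, minus strand: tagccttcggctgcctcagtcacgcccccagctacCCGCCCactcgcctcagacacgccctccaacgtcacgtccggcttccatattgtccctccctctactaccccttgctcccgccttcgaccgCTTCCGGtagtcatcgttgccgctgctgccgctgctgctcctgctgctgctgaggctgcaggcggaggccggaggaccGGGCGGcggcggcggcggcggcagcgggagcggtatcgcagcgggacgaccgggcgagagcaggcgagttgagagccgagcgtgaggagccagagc

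Motif matches differed between the 5 windows. Mtor held 2 GC boxes, 4 CCAAT boxes and 1 ETS core. Tsc2 held 2 ETS cores in opposite orientation, 8 bases before and 11 bases into the transcript, and neither a GC box nor a CCAAT box. Eif4ebp2 held 2 GC boxes and 1 ETS core, and Rptor and Tsc1 held 0 of these motifs. Of 32851 promoter windows of this length, 35.7% held a GC box, 37.4% a CCAAT box and 8.86% an ETS core. The table of promoters matched 8 of the 10 genes, all except Deptor and Eif4ebp1. Among those 8, GC boxes were found in 4 windows, CCAAT boxes in 2 and ETS cores in 3. GC content of the windows ran from 41.7% in Rptor, with 13.4% of all promoter windows lower, to 78.3% in Rictor. The E-box CACGTG occurred in Rheb alone of the 8 and in 7.15% of all windows, and the cyclic AMP response element TGACGTCA in 0 of the 8 and 1.79% of all. A match in letters is a description and does not show binding.

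Mtor (ENSMUSG00000028991.15) lies on chromosome 4 of GRCm38 from 148448611 to 148557683, plus strand. Its FPKM was 22.0, 21.9, 23.1 and 23.7 in normal mice 1 to 4 and 27.1, 27.1, 27.3 and 25.8 in high fat diet fed mice 1 to 4. Each high fat diet fed mouse thus stood above each normal mouse, with the nearest values at 23.7 and 25.8. The mean rose from 22.7 ± 0.873 (SD, n = 4) to 26.8 ± 0.690 (SD, n = 4), a log2 fold change of 0.24 (standard error, SE, 0.045, 95% interval 0.14 to 0.34, limma adjusted p = 0.00407). This is 1.18 times the normal level. Without any 1 mouse it stayed between 0.23 and 0.26 and past the threshold in 8 of 8 fits.

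**Figure D1:**
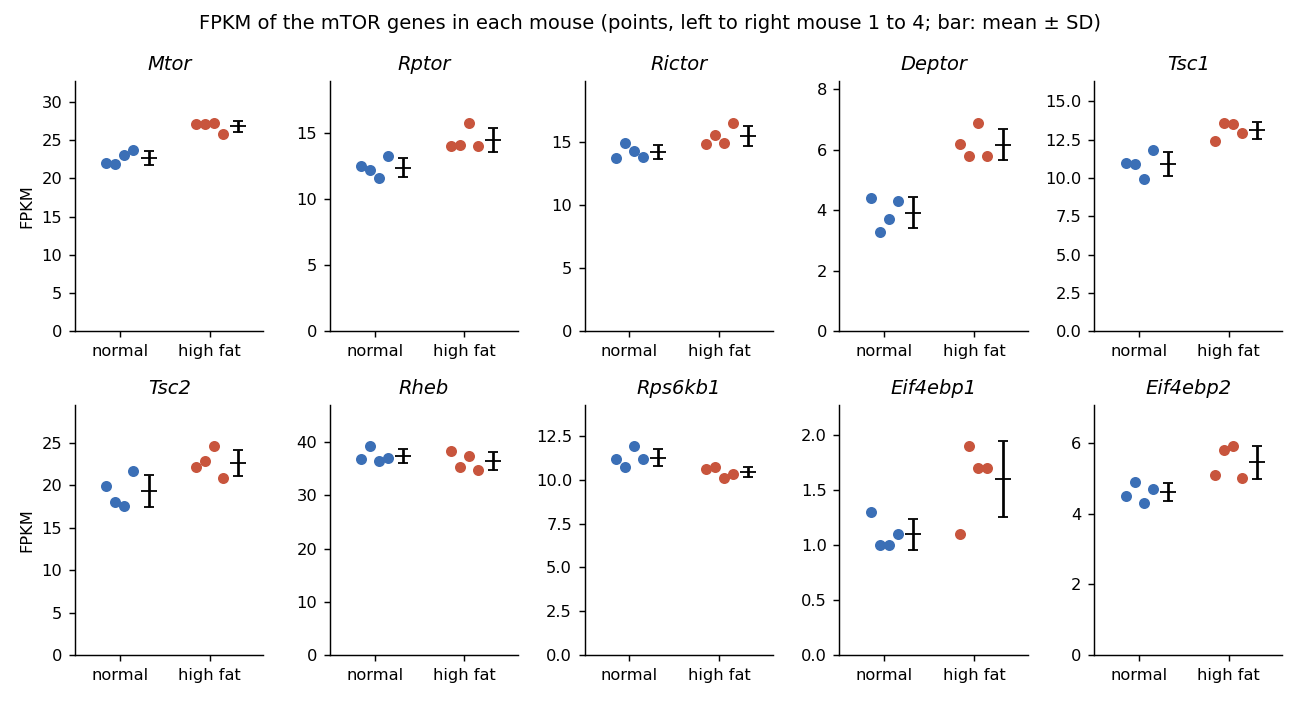
FPKM of the 10 mTOR genes in each mouse, 1 panel a gene with its own axis from 0, blue for normal and red for high fat diet fed mice, points from left to right mouse 1 to 4, and black bars for mean ± SD over the 4 mice. The diets are separate for Mtor, Rptor, Deptor, Tsc1 and Eif4ebp2, while Rheb lies between 34.7 and 39.2 in all 8 mice.

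Rptor (ENSMUSG00000025583.15, chromosome 11, 119602905 to 119899576, plus strand), the scaffold of mTORC1, had FPKM values of 12.5, 12.2, 11.6 and 13.3 in normal mice. High fat diet fed mice had 14.0, 14.1, 15.8 and 14.0, with mouse 3 far above the other 3. The groups did not overlap, but the gap between them was only from 13.3 to 14.0. The log2 fold change was 0.22 (SE 0.062, limma adjusted p = 0.0228), or 1.17 times. This call depended on single mice: it was lost without normal mouse 2 (log2 fold change 0.21, adjusted p = 0.0562), normal mouse 3 (0.19, adjusted p = 0.0573) or high fat diet fed mouse 3 (0.18, limma adjusted p = 0.0518). Rictor (ENSMUSG00000050310.9, chromosome 15, 6708379 to 6800401, plus strand), the defining subunit of mTORC2, was 13.7, 14.9, 14.3 and 13.8 in normal mice and 14.8, 15.5, 14.9 and 16.5 in high fat diet fed mice. Normal mouse 2 overlapped with high fat diet fed mice 1 and 3. Rictor did not pass the test, at a log2 fold change of 0.12 (95% interval 0.0008 to 0.24, limma adjusted p = 0.111). The Rptor to Rictor ratio of FPKM was 0.811 to 0.964 in normal mice and 0.849 to 1.06 on the high fat diet. The balance of the scaffolds thus overlapped between the diets and no unequal change can be read from the difference in their calls.

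Deptor (ENSMUSG00000022419.16, chromosome 15, 55112317 to 55259271, plus strand), which encodes the inhibitor that both complexes share, changed more than any of the other 9. Its FPKM was 4.4, 3.3, 3.7 and 4.3 in normal mice, and 6.2, 5.8, 6.9 and 5.8 in high fat diet fed mice. The lowest high fat diet fed mouse, at 5.8, stood well above the highest normal mouse, at 4.4. On average the level went from 3.93 ± 0.519 to 6.18 ± 0.519 FPKM (SD, n = 4 each), a log2 fold change of 0.65 (SE 0.10, 95% interval 0.41 to 0.88, limma adjusted p = 0.00243) or 1.57 times. All 8 fits that left out a mouse kept the adjusted threshold, with a log2 fold change between 0.57 and 0.70. Without normal mouse 2 the value of 0.57 (limma adjusted p = 0.00614) lay just under the 50% minimum. The Mtor to Deptor ratio of FPKM fell from a range of 5 to 6.64 in normal mice to one of 3.96 to 4.67 on the high fat diet, without overlap. This compares transcript levels between different mice, and the ratio was not tested.

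Tsc1 (ENSMUSG00000026812.16, chromosome 2, 28641228 to 28691167, plus strand) and Tsc2 (ENSMUSG00000002496.10, chromosome 17, 24595816 to 24632630, minus strand) encode the scaffold and the GTPase-activating subunit of the TSC complex. Tsc1 was 11, 10.9, 9.9 and 11.8 FPKM in normal mice and 12.4, 13.6, 13.5 and 12.9 in high fat diet fed mice, with no overlap. The rise of 0.26 on the log2 scale (SE 0.063, limma adjusted p = 0.0121), 1.2 times, held past the threshold in 8 of 8 fits without a mouse. Tsc2 was 19.9, 18, 17.6 and 21.7 in normal mice and 22.2, 22.9, 24.6 and 20.9 in high fat diet fed mice. Here normal mouse 4 stood above high fat diet fed mouse 4, and the groups overlapped. The log2 fold change of Tsc2 was 0.23 (SE 0.077, limma adjusted p = 0.0424), and it was kept in only 2 of 8 fits, those without normal mouse 4 or high fat diet fed mouse 4. Leaving out mouse 1, 2 or 3 of either diet ended the call, with log2 fold changes between 0.19 and 0.25 and a limma adjusted p reaching 0.108, as did a fit with no variance trend (limma adjusted p = 0.0636). The Tsc1 to Tsc2 ratio of FPKM was 0.544 to 0.606 in normal mice and 0.549 to 0.617 in high fat diet fed mice, nearly the same range. Rheb (ENSMUSG00000028945.9, chromosome 5, 24802823 to 24842624, minus strand), the GTPase that the TSC complex inactivates, did not pass the test. It was 36.9, 39.2, 36.4 and 37.0 FPKM in normal mice and 38.4, 35.3, 37.4 and 34.7 in high fat diet fed mice. The Rheb difference of -0.037 on the log2 scale had a 95% interval from -0.14 to 0.070 (limma adjusted p = 0.581). The interval of this fit, which has no term for tissue makeup, held neither the rise of Tsc1 (0.26) nor a fall of that size.

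**Figure D2:**
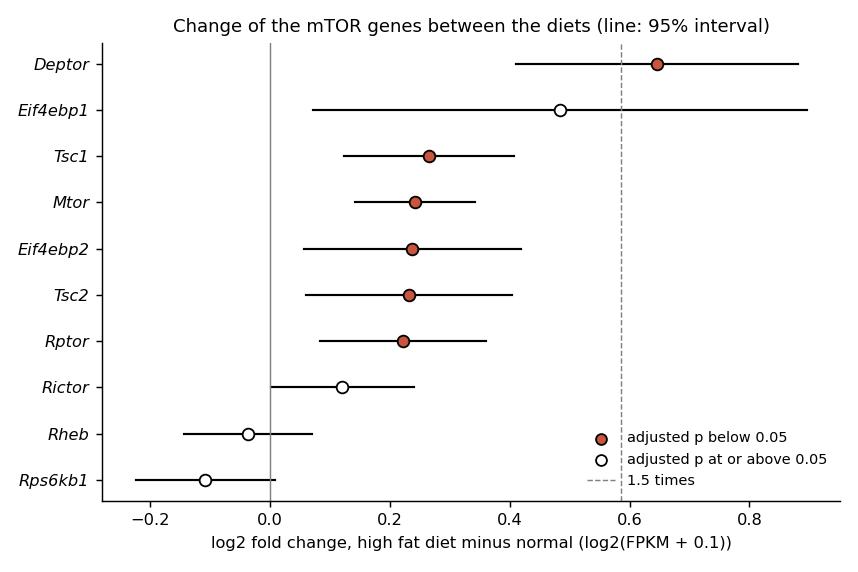
Log2 fold change of each mTOR gene (high fat diet minus normal, on log2(FPKM + 0.1)), with lines for the 95% interval from limma; filled points have an adjusted p below 0.05 and the dashed line marks 1.5 times. Only the point of Deptor lies beyond the dashed line, and the other 5 filled points lie between 0.22 and 0.26.

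Of the 3 genes for substrates of mTORC1, 1 passed the test, and differences between these genes were not tested. Rps6kb1 (ENSMUSG00000020516.15, chromosome 11, 86498871 to 86544805, minus strand), which encodes S6K1, was 11.2, 10.7, 11.9 and 11.2 FPKM in normal mice and 10.6, 10.7, 10.1 and 10.3 in high fat diet fed mice. Mice of the diets met at 10.7, and the log2 fold change of -0.11 (95% interval -0.22 to 0.0079, limma adjusted p = 0.136) did not pass. Eif4ebp2 (ENSMUSG00000020091.15, chromosome 10, 61428491 to 61452661, minus strand) was 4.5, 4.9, 4.3 and 4.7 in normal mice and 5.1, 5.8, 5.9 and 5.0 in high fat diet fed mice. The groups stood apart by 0.1, the step to which values were rounded. Eif4ebp2 rose by a log2 fold change of 0.24 (SE 0.081, limma adjusted p = 0.0469), a call kept in 1 of 8 fits, that without high fat diet fed mouse 4. In the other 7, without any 1 of normal mice 1 to 4 or high fat diet fed mice 1 to 3, the log2 fold change was between 0.20 and 0.27 with a limma adjusted p reaching 0.124. Median-ratio rescaling (limma adjusted p = 0.0521) and quantile normalization (limma adjusted p = 0.0514) ended the call of Eif4ebp2 too. Eif4ebp1 (ENSMUSG00000031490.6, chromosome 8, 27260329 to 27276674, plus strand) had the lowest expression of the 10 genes, at 1.3, 1.0, 1.0 and 1.1 FPKM in normal mice and 1.1, 1.9, 1.7 and 1.7 in high fat diet fed mice. High fat diet fed mouse 1 lay within the range of normal mice and the other 3 above it. Its log2 fold change of 0.48 (95% interval 0.072 to 0.90, limma adjusted p = 0.0691) did not pass, and it passed without high fat diet fed mouse 1, at 0.64 (limma adjusted p = 0.019). The Eif4ebp1 to Eif4ebp2 ratio ran from 0.204 to 0.289 in normal mice and 0.216 to 0.340 on the high fat diet. The repressor known as the main form in brain thus had the higher level in all 8 mice.

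Per length, the order of mean FPKM in normal mice was Rheb, Mtor, Tsc2, Rictor, Rptor, Rps6kb1, Tsc1, Eif4ebp2, Deptor and Eif4ebp1, from 37.4 down to 1.10. Neighbours whose ranges overlapped in normal mice, and which are therefore not ordered beyond their spread, were Rptor with Rps6kb1, Rps6kb1 with Tsc1, and Eif4ebp2 with Deptor. In high fat diet fed mice Tsc1 stood above Rps6kb1 without overlap, at 13.1 against 10.4 FPKM, and Deptor, at 6.18, ranked above Eif4ebp2, at 5.45, with overlapping ranges. Among mRNAs tested, Rheb lay above 84.2% and Mtor above 75.5% by mean FPKM over all mice, while Eif4ebp1 lay above 3.19%.

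Within diets, after subtraction of each diet mean from log2(FPKM + 0.1), the levels of Rptor and Tsc2 went together over the 8 mice (Pearson's r 0.89), as did Tsc2 with Deptor (0.81) and Tsc1 with Tsc2 (0.80). Rictor went against Deptor (r = -0.81) and Tsc2 (-0.71). Libraries of a diet can differ in depth and base composition, and they differed in levels of marker genes of other cells, given below. These correlations carry no test. GC content of the longest transcript was 56.5% for Rptor, 54.7% for Tsc2, 54.2% for Mtor, 52.4% for Eif4ebp2 and 51.7% for Tsc1. It was 48.2% for Eif4ebp1, 44.7% for Rheb, 44.3% for Deptor, 42.5% for Rictor and 39.2% for Rps6kb1. Deptor, which went with Tsc2 and against Rictor, was thus nearer to Rictor in GC content. The part of GC content in these correlations was not tested. With all genes split into 4 equal bins by transcript GC, 26.5% of the bin with the highest GC were called higher in high fat diet fed mice and 13.9% of the bin with the lowest. For exonic length the shares were 24.9% in the bin of the longest and 11.8% in that of the shortest. Exonic lengths of the 6 genes that rose ran from 5784 bases for Eif4ebp2 to 13471 bases for Rptor. Among those that did not pass, Rictor had 16930 bases, Rps6kb1 8658, Rheb 7721 and Eif4ebp1 2196. With each mouse corrected for GC content by a loess fit, an alternative chosen after seeing the data, Deptor, Mtor and Tsc1 kept their calls, Rictor gained one (log2 fold change 0.15, limma adjusted p = 0.0343), and Rptor (0.16, adjusted p = 0.0546), Tsc2 (0.19, adjusted p = 0.0743) and Eif4ebp2 (0.22, limma adjusted p = 0.0567) lost theirs. The same correction for exonic length left 3 calls, again Deptor, Mtor and Tsc1. Of 9314 other mRNAs with a mean FPKM of at least 5, those whose deviations were most like those of Mtor were Gne (r = 0.96), Nrxn2 (0.95) and Smarca4 (0.94). Those most like Deptor were Frat1 (0.99), Mmgt2 (0.97) and Camk2b (0.97), each over 8 mice. These are the highest of 9314 values from few mice, and values this high can arise by chance among so many. They carry no test.

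The cortexes of the diets also differed in marker genes of other cells and regions, and these values stand beside every change above. Of the markers of striatal projection neurons 8 of 8 tested fell, and their summed FPKM was 211 to 386 in normal mice and 60.7 to 71.0 in high fat diet fed mice. Cerebellar markers summed to 58.5 to 437 and 38.8 to 45.5, with 5 of 7 tested lower and normal mice 2 and 3 highest. Oligodendrocyte markers fell in 8 of 8, from 2112 to 3485 down to 1462 to 2030. Markers of cortical excitatory neurons, the cells that define the labelled tissue, were present in each mouse and rose in 5 of 6 genes, with sums of 265 to 402 and 435 to 518. Thalamic (3 of 7), choroid plexus (3 of 6) and red blood cell markers (5 of 5) were lower, astrocyte markers were lower in 2 and higher in 1 of 7, and microglia markers changed in 0 of 6 by limma. Summed FPKM of thalamic markers was 42.4 to 123 in normal mice and 38.8 to 43.0 in high fat diet fed mice. For red blood cell markers it was 239 to 480 and 199 to 247. In both lists normal mouse 4 lay within the range of high fat diet fed mice. Choroid plexus markers overlapped too, at 344 to 730 and 21.1 to 943, astrocyte markers at 1168 to 1308 and 1162 to 1232, and microglia markers at 133 to 161 and 143 to 153. None of the markers with a value was at 0 in all mice, and 1 cerebellar marker was listed at 0 in some mouse. The cerebellar marker was Gabra6, at 1.7 to 61.7 FPKM in normal mice and at most 0.2 on the high fat diet, and the striatal marker Drd2 was 4.2 to 9.3 against 0.3 to 0.7. The libraries of normal mice thus held RNA of genes that mark tissue outside the cortex, and the diets cannot be told apart from how the cortexes were dissected. Fewer cells of a type and less RNA per cell cannot be told apart either.

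**Figure D3:**
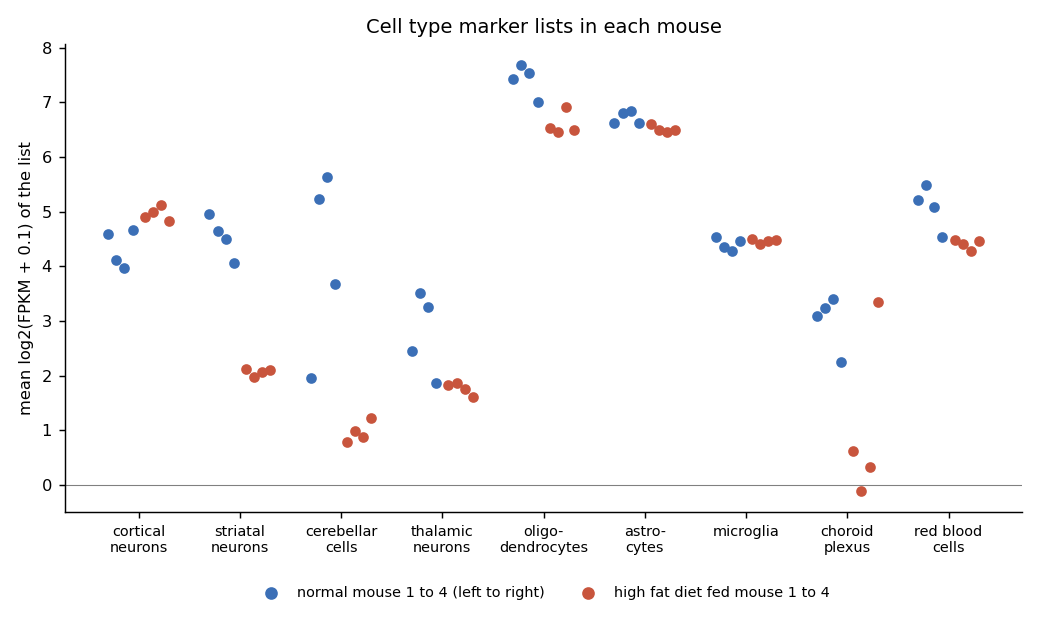
Mean log2(FPKM + 0.1) of each cell type marker list in each mouse, blue for normal and red for high fat diet fed mice, from left to right mouse 1 to 4. Striatal and cerebellar lists are lower in all 4 high fat diet fed mice, the cortical list is higher in each, and high fat diet fed mouse 4 lies near the normal mice for choroid plexus.

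Levels of mTOR genes and of these markers also stood apart in single mice of 1 diet. Normal mouse 4, with the lowest striatal (211), oligodendrocyte (2112) and thalamic (42.4) sums and the highest cortical sum (402), had the highest Mtor, Rptor, Tsc1 and Tsc2 of its diet. High fat diet fed mouse 3, with the highest cortical sum of all (518) but also the highest oligodendrocyte sum of its diet (2030), had the highest Mtor, Rptor, Tsc2, Eif4ebp2 and Deptor of all. Its Mtor, at 27.3 FPKM, was close to the 27.1 of high fat diet fed mice 1 and 2. Its striatal sum was also the highest of its diet (71). By mean log2(FPKM + 0.1) of the striatal list, however, it lay at 2.07, below high fat diet fed mice 1 (2.12) and 4 (2.10). Normal mouse 1 had the highest striatal sum of its diet (386), a cortical sum of 375 and the highest Deptor of its diet (4.4 FPKM). It also came next after normal mouse 4 in Rptor, Tsc1 and Tsc2. Among normal mice Eif4ebp2 was highest in mouse 2 (4.9 FPKM). This description of single mice carries no test. With a marker list as a covariate in limma, 0 of the 10 genes passed the adjusted threshold for the striatal, the cerebellar and the oligodendrocyte list alike, and 0, 2 and 1 had an unadjusted p below 0.05. The diets account for 96.6%, 69.95% and 77% of the variance of these lists over the mice, so each covariate shares most of its variance with the diets. Of all genes 0, 397 and 8 then passed, with 288, 3124 and 2071 at an unadjusted p below 0.05 in limma. Loss of calls through this overlap and through tissue makeup cannot be told apart. Beside the cerebellar list the log2 fold change of Mtor was 0.25 (SE 0.082, limma adjusted p = 0.119) and that of Eif4ebp2 0.23 (SE 0.15), while Tsc1 was at 0.16, Rptor at 0.13 and Tsc2 at 0.041. Beside the striatal list Mtor was at -0.090 (SE 0.24). Deptor was at 0.34 beside the cerebellar list (SE 0.15), 0.54 beside the oligodendrocyte list (0.22) and 0.56 beside the striatal list (0.61). When normal mice 2 and 3 were left out together, chosen after seeing their cerebellar and thalamic levels, Deptor (0.49, adjusted p = 0.0128) and Mtor (0.23, limma adjusted p = 0.0231) still passed and the other 8 did not. Diet and tissue makeup cannot be told apart in these 8 mice.

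Other genes of the pathway changed at about the rate of all genes, and in both directions. Of 78 genes tested in 5 lists, 27 (34.6%) passed, 15 higher and 12 lower, with a median log2 fold change of 0.0061. These lists were chosen for their place in the pathway, and nothing particular to them is read from the counts. The rate was 20% of the 10 other subunits and assembly factors, 31% of 29 genes of amino acid sensing, 46.7% of 15 upstream kinases and stress inputs, 50% of 12 translation effectors and 25% of 12 genes of autophagy, transcription and feedback. List medians ran from -0.053 for amino acid sensing to 0.098 for the upstream kinases.

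**Figure D4:**
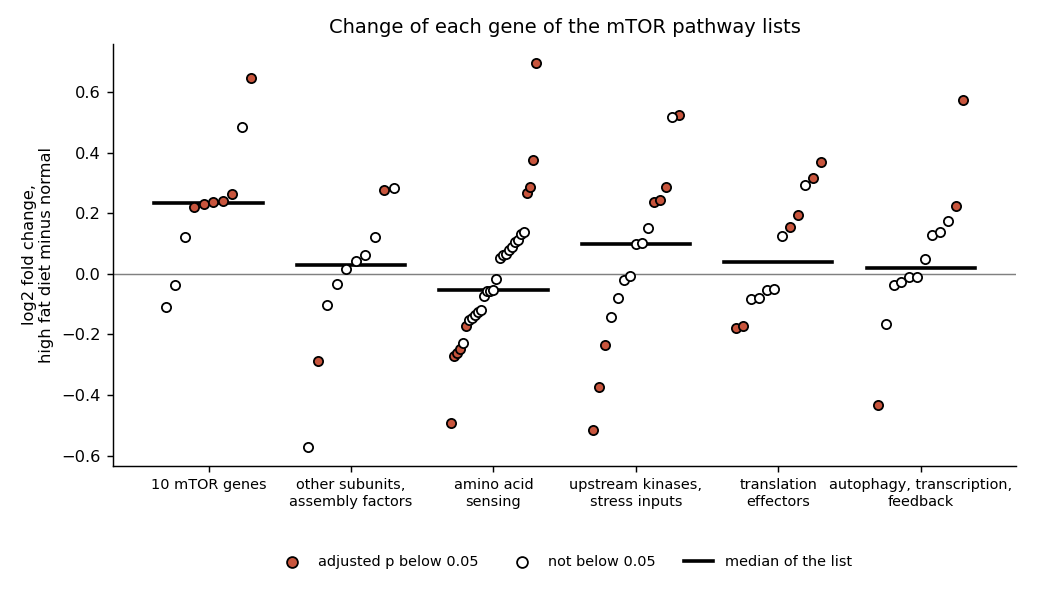
Log2 fold change of each gene (high fat diet minus normal) in the 10 mTOR genes and 5 lists of other pathway genes, with filled points for an adjusted p below 0.05 from limma and a bar for the list median. Genes of the 5 lists lie on both sides of 0, and their medians are nearer to 0 than the 0.24 of the 10 mTOR genes.

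Among other subunits, 1 rose and 1 fell. Tbc1d7, the third subunit of the TSC complex, was lower, from 10.6 ± 0.499 to 8.73 ± 0.888 FPKM (log2 fold change -0.29, limma adjusted p = 0.0226), opposite in sign to Tsc1 and Tsc2. Telo2, a factor that helps assemble mTOR and related kinases, rose from 4.03 ± 0.171 to 4.90 ± 0.216 (0.28, limma adjusted p = 0.014). The other 8, among them Mlst8 (0.12, limma adjusted p = 0.153) and Akt1s1 (0.042, limma adjusted p = 0.636), which encode a subunit of both complexes and the inhibitor PRAS40, did not pass.

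Upstream of the complex, 4 genes rose and 3 fell. Ddit4, which encodes the stress-induced mTORC1 inhibitor REDD1, fell from 19.0 ± 2.52 to 13.2 ± 1.46 FPKM (log2 fold change -0.51, limma adjusted p = 0.00627). Akt2, an insulin-activated kinase that phosphorylates TSC2, decreased from 42.1 ± 3.18 to 32.5 ± 2.24 (-0.37, limma adjusted p = 0.00353). Prkaa2, a catalytic subunit of the energy sensor AMPK, increased from 7.10 ± 1.1 to 10.2 ± 0.427 (0.52, limma adjusted p = 0.00484). Prkag2, a regulatory subunit of the same kinase, was also higher (0.24, limma adjusted p = 0.00956).

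In amino acid sensing 4 genes rose and 5 fell. Gatsl2, also named Castor2 and related to the arginine sensor CASTOR1, was the only gene of the 5 lists past both the adjusted threshold and the minimum change of 50%, from 11.9 ± 0.712 to 19.4 ± 1.39 FPKM (log2 fold change 0.70, limma adjusted p = 0.000349). Sesn3, a sestrin, rose by 0.29 on the log2 scale (limma adjusted p = 0.00329). Wdr24 and Sec13 encode subunits of GATOR2, which relays amino acid supply to mTORC1. They moved in opposite directions, at 0.27 (adjusted p = 0.00414) and -0.26 (limma adjusted p = 0.00541).

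Downstream, Larp1, which encodes a translation regulator under mTORC1, rose from 16.7 ± 0.780 to 21.6 ± 0.921 FPKM (log2 fold change 0.37, limma adjusted p = 0.00137). Rps6kb2, the paralog of Rps6kb1 that encodes S6K2, rose from 7.55 ± 0.619 to 9.43 ± 0.556 (0.32, limma adjusted p = 0.0103), while Rps6kb1 itself did not pass at -0.11. The difference between the paralogs was not tested. Pdcd4, a translation inhibitor that S6K1 marks for degradation, was higher (0.20, limma adjusted p = 0.0206), and Eif4a1, the RNA helicase it binds, was lower (-0.18, limma adjusted p = 0.0197). Ulk1, the autophagy kinase that mTORC1 holds in check, rose from 7.63 ± 0.403 to 11.5 ± 1.26 (0.58, limma adjusted p = 0.00141), and its partner Atg13 rose by 0.22 (limma adjusted p = 0.0385). Tfeb, a transcription factor for lysosomal genes that mTORC1 keeps out of the nucleus, fell from 4.28 ± 0.613 to 3.13 ± 0.263 (-0.43, limma adjusted p = 0.0202).

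**Figure D5:**
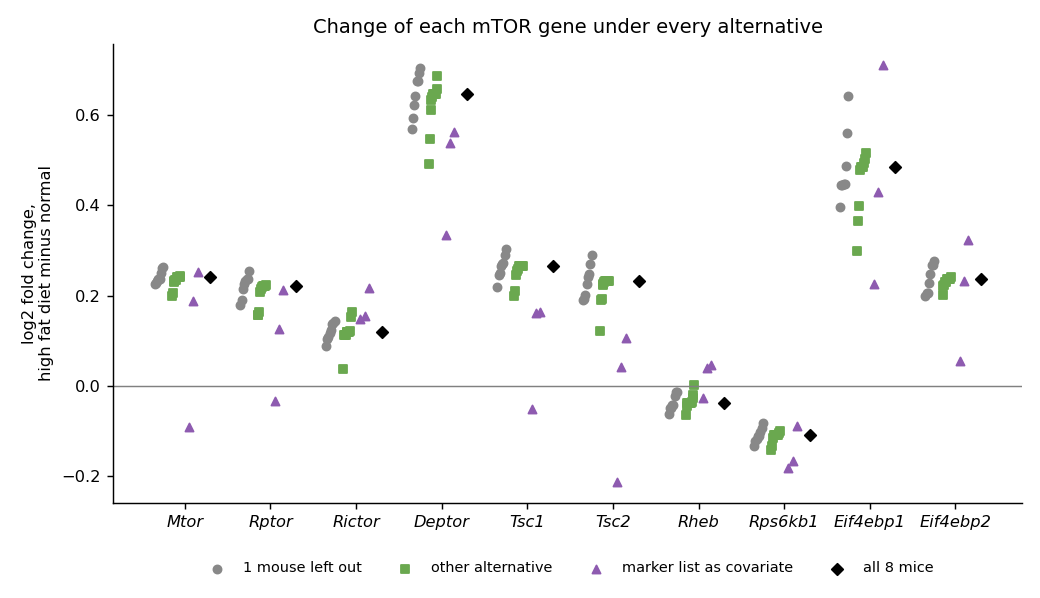
Log2 fold change of each mTOR gene (high fat diet minus normal) in the fit on all 8 mice (diamonds), in 8 fits without 1 mouse (circles), with a marker list as a covariate (triangles) and under the other alternatives (squares). Values without 1 mouse keep their sign for all 10 genes, and the triangles of Tsc2 run from -0.21 to 0.11.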

How the data were processed

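RNA was sequenced by the authors from cortexes of 8 mice, 4 on each diet, with stranded, paired-end libraries of rRNA-depleted RNA. The deposited values are FPKM, made by the authors after quality control by FastQC and trimming by Trimmomatic, with alignment to mm10 by STAR and Cuffnorm with GENCODE M17 (GRCm38.p6). The sources used here give no tool versions. Their Salmon and edgeR values were not used here. Depth is unknown, since FPKM sums (562431 to 639142 per mouse) do not give reads.

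A filter of mean FPKM 1 or more without any 0 left 13982 genes. From the deposited FPKM, log2(FPKM + 0.1) was compared with limma 3.58.1 (R 4.3.3, variance trend) in place of the study's test per gene. Fold changes are on that scale, which understates changes of low genes. Tables were made in Python 3.11.15 (pandas 2.3.3, numpy 2.4.6) and figures with matplotlib 3.10.9. Coordinates, lengths and GC come from GENCODE M21 (GRCm38), which held 99.9% of genes tested. The 10 genes and the lists were chosen with earlier results of these data known. Named beside the 10 genes were, per list, up to 4 called genes with the lowest p and any over 1.5 times; genes named as not passing, the markers Gabra6 and Drd2, and the subunits in the closing section, were chosen after their values were seen. The fit was tested on simulated data. It recovered 35 of 100 genes changed 1.25 times and 67 of 100 changed 1.5 times, and called 4 unchanged genes. Small changes can thus fail the test. Far fewer genes were changed there than were called in these data, so the rates need not carry over. Alternatives were other constants, filters, scalings and variance models, the replicate number as a block, marker covariates, length and GC corrections (loess, span 0.5) and left-out mice. Some subunits are not reported here.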

Additional observations from a re-analysis of the deposited data

Results flagged for a closer look

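A pair of values of the mTOR genes stood apart from the other mice of their diet. Mtor was 25.8 FPKM in high fat diet fed mouse 4, below 27.1, 27.1 and 27.3 in the other 3. Rptor was 15.8 FPKM in high fat diet fed mouse 3, above 14.0, 14.1 and 14.0 in the other 3. In each case the gap to the nearest mouse was larger, relative to the range, than Dixon's 95% limit for 4 samples. Of 28 groups of 4 examined, 2 passed this limit, and chance flags about 1 in 20. Mtor kept its call without high fat diet fed mouse 4 (log2 fold change 0.26), and Rptor lost it without high fat diet fed mouse 3 (0.18, limma adjusted p = 0.0518).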

How the results depend on the processing

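Of 219 log2 fold changes of the 10 genes under alternatives, 164 kept direction and side of the threshold, 46 kept direction but lost the threshold, 2 kept it and gained the threshold, and 7 reversed. The count of 6 genes changed was 3 with the replicate number as a block (Deptor, Mtor and Tsc1), 3 with the length correction, 2 without normal mice 2 and 3, 0 with each marker covariate, and 3 to 6 without 1 mouse. It was 3 without normal mouse 2, normal mouse 3 or high fat diet fed mouse 3. The count past 50%, 1 in the fit on 8 mice, was 0 with log2(FPKM + 1), with each marker covariate and without normal mice 2 and 3, and 0 to 2 without 1 mouse (0 without normal mouse 2, and 2 without high fat diet fed mouse 1). The 27 other pathway genes became 0, 2 and 0 with the striatal, cerebellar and oligodendrocyte covariates (2, 25 and 13 at an unadjusted p below 0.05 in limma), 16 without normal mice 2 and 3 and 17 to 29 without 1 mouse, the lowest without normal mouse 2. All genes changed, 4626, became 0, 397 and 8 with these covariates, 2743 without normal mice 2 and 3, and 3295 to 4619 without 1 mouse. Reversed with the striatal covariate were Mtor (-0.090), Rptor (-0.033), Tsc1 (-0.050), Tsc2 (-0.21) and Rheb (0.040), and Rheb also with the oligodendrocyte covariate (0.046) and the GC correction (0.0029). These covariates follow the diets, so loss of calls through that overlap and through tissue makeup cannot be told apart. For the other settings the cause was not tested. Mice with the same number did not deviate together from their diet means (correlations of -0.11 to -0.028). The sample names state no pairing, and whether the numbers stand for one cannot be told from these correlations. Eif4ebp2 also lost its call under median-ratio rescaling and quantile normalization, and Tsc2 with no variance trend. The effect of rounding to 0.1 was not tested.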

Other observations

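The subunits of the lysosomal sensing machinery and of AMPK, grouped by complex after their values were seen, are given beside all genes tested, of which 33.1% were called, 15.3% lower, and 50.6% had a positive log2 fold change. All 5 genes of Ragulator, which anchors mTORC1 signaling at the lysosome, had negative log2 fold changes, from -0.27 to -0.053. Of these 1, Lamtor5, passed the adjusted threshold of limma, from 47.8 ± 3.13 FPKM in normal mice to 39.6 ± 1.94 in high fat diet fed mice. The 4 Rag GTPases were likewise all negative, from -0.49 to -0.058, and 2 passed: Rragd fell from 31.3 ± 3.7 to 22.2 ± 2.39 FPKM and Rraga from 31.0 ± 2.03 to 27.5 ± 0.520. The 3 genes of GATOR1, an inhibitor of the Rag GTPases, were positive (0.079 to 0.13) with 0 past the adjusted threshold of limma and 0 at an unadjusted p below 0.05. The 5 genes of GATOR2 went both ways, 3 positive and 2 negative (-0.26 to 0.27), with Wdr24 higher and Sec13 lower.

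Catalytic subunits of AMPK moved in opposite directions: Prkaa2 rose (log2 fold change 0.52) and Prkaa1 fell from 8.63 ± 0.624 to 7.30 ± 0.116 FPKM (-0.24, adjusted p = 0.0196 from limma). Their summed level was not compared. Short and long transcripts, and those of low and high GC, were called at unequal rates in these libraries, and the part of this in the pattern by complex was not tested.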
